A study of Arabidopsis thaliana with 6 samples.

Results

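The transcripts described here come from 10 nuclear genes of Arabidopsis that act in the making and the final emptying of xylem vessels: CESA4, CESA7, CESA8, IRX9, COBL4 (also known as IRX6), LAC4, LAC17, MYB46, XCP1 and XCP2. They were chosen by name, for their known role, out of 36917 genes in the files, with earlier results of these data known. Counts were available from 6 RNA-Seq libraries of seedlings that were 6 days old, 3 of wild-type Col-0 and 3 of amiR-mterf2. No other treatment was applied to either genotype. The amiR-mterf2 plants carry an artificial microRNA transgene directed against the mRNA of MTERF2, the nuclear gene of a chloroplast protein of the mTERF family, in the Col-0 background. It is a knock-down and not a null, the read-depth plots of the study name 1 line for it, and the promoter of the transgene is not given in the sources used here. All seedlings were raised on half-strength MS agar with sucrose under long days, and the study describes the replicates as independent.

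Water-conducting xylem cells lay down a thick secondary wall inside the primary wall and then die, leaving an empty tube. The wall is built from cellulose, made by a plasma membrane complex of the CESA4, CESA7 and CESA8 subunits, from xylan, and from lignin, which is polymerised in the wall by laccases and peroxidases. NAC factors of the VND group and, below them, MYB46 and MYB83 switch on these genes, and the cysteine proteases XCP1 and XCP2 digest the cell contents when the cell dies.

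Of the 10 genes, 9 passed the filter on low counts and 8 of these fell in amiR-mterf2 by the quasi-likelihood test of edgeR (threshold 0.05 after Benjamini-Hochberg adjustment across the 17902 genes tested). None rose. Over all genes tested, 18.2% fell and 18.1% rose by the same test. Since the genes were chosen with earlier results known, this comparison is a description and not a test. The log2 fold changes of the 9 tested genes were all negative and had a median of -1.16, beside a median of -0.02 over all genes tested. The transcripts that fell most were those of IRX9, COBL4, CESA8 and XCP1, and the ones closest to the wild type were those of XCP2, CESA4 and CESA7. Because seedling tissues were mixed, fewer xylem cells, less of each mRNA per xylem cell and a different root content cannot be told apart.

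CESA4 and XCP1 carry, just before their annotated start, the 11-base tracheary element regulating element (TERE), a sequence that VND factors bind. CESA8, IRX9, COBL4, LAC4, LAC17 and XCP2 also fell and held no match. Any part of the element in the falls was not tested. Windows from 250 bases before to 50 bases after the start were searched on both strands of the TAIR10.1 genome (RefSeq). The form searched was CTTNAAAGCNA, which 2 of the 10 windows held, beside 123 of 27443 windows of all genes, or 0.448%. In the stretches below, both on the forward strand and both from genes of that strand, the capitals mark the element.
CESA4 chr5:17714361-17714389: acataataaCTTGAAAGCTActctaagtt
XCP1 chr4:16810398-16810426: ttgtctttgCTTCAAAGCCAatcctatga
The element lay 20 to 10 bases before the start of CESA4 and 75 to 65 bases before that of XCP1. The CESA4 stretch also lies within the annotated end of the neighbouring gene AT5G44020. The second element searched was SMRE, to which MYB46 binds, whose 8 forms of 7 bases begin with ACCAA or ACCTA and end in AC, AT, CC or CT, and no match of which overlapped a TERE match here. It occurred in 4 of the 10 windows (CESA4, CESA7, CESA8 and LAC17) and in 33.6% of all windows. The matches before a start were those of CESA4, on the reverse strand, and LAC17. Their stretches lie within the annotated genes AT5G44020 and AT5G60022.
CESA4 chr5:17714299-17714325: acatagccagATTTGGTaaagtttata
LAC17 chr5:24167925-24167951: tcaagcaaacACCTAACtctcctttcc
A match is a description of the letters and not a measured binding site.

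The depth was similar across the libraries. Gene counts summed to between 18004935 and 21832003 in a library, of which 58.7% to 62.0% lay on plastid genes, so that 3 counts corresponded to 0.140 to 0.175 counts per 1000000 (CPM) after TMM scaling. MTERF2 itself had 48, 33 and 58 counts in Col-0 replicates 1, 2 and 3 and 32, 16 and 8 counts in amiR-mterf2 replicates 1, 2 and 3. Its log2 fold change was -1.15 ± 0.478 (SE, n = 3 per genotype, edgeR adjusted p = 0.0837), which did not pass the threshold, and amiR-mterf2 replicate 1 lay above Col-0 replicate 2 after scaling. Without amiR-mterf2 replicate 1 the change was -1.88 (edgeR adjusted p = 0.015), and without Col-0 replicate 2 it was -1.29 (edgeR adjusted p = 0.0265).

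Col-0 replicate 2 stood apart from the other wild-type libraries. Its root mean square difference from Col-0 replicates 1 and 3 was 0.529 and 0.520 on the log2 scale, while replicates 1 and 3 differed by 0.314. Among genes with 1 to 20 counts, 43.3% had an even count in this library and 72.2% to 74.9% in the other 5 libraries. It also held 15.3 CPM of the 4 root hair markers RSL4, RHD6, EXPA7 and COBL9, beside 0.563 and 0.655 CPM in the other Col-0 libraries and 0, 0 and 0.107 CPM in amiR-mterf2. On average over the 9 tested wall genes this library lay 0.32 above the mean of its genotype on the log2 scale, and it was the highest Col-0 library for 7 of the 10. Wall gene fold changes that depend on it are also given without it, while the COBL9 ratio below is not. The part of root content or of the manner of counting in these results was not tested.

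Of the 3 cellulose synthase subunits, CESA8 and CESA4 fell and CESA7 did not pass the threshold. CESA8 (AT4G18780; chromosome 4, 10312624 to 10316886, 12 exons) had 142, 147 and 187 counts in wild-type Col-0 and 40, 71 and 49 in amiR-mterf2. Every Col-0 library lay well above every amiR-mterf2 library. The mean level went from 7.81 ± 1.06 to 2.81 ± 0.588 CPM (SD, n = 3), a 2.77-fold fall (log2 fold change -1.47 ± 0.216 (SE), edgeR adjusted p = 0.000353).

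CESA4 (AT5G44030; chromosome 5, 17714390 to 17719723, 11 exons) had 112, 142 and 130 counts in wild-type Col-0 and 64, 87 and 86 in amiR-mterf2. The groups did not overlap, but they lay closer together than for CESA8. The level went from 6.36 ± 1.27 to 4.19 ± 0.429 CPM (SD, n = 3). Its log2 fold change was -0.60 ± 0.208 (SE, edgeR adjusted p = 0.0437). This call was narrow, and without Col-0 replicate 2 the change was -0.43 (edgeR adjusted p = 0.123). The call was also lost without Col-0 replicate 3 or any 1 of the amiR-mterf2 libraries, with changes of -0.66 to -0.51 (edgeR adjusted p = 0.0752 to 0.142). AT5G44020, on the same strand, overlaps CESA4 over 17 bases. It had 5316 to 6445 counts in Col-0 and 9625 to 11066 in amiR-mterf2, and any part of it in the CESA4 counts was not tested.

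CESA7 (AT5G17420; chromosome 5, 5736630 to 5741500, 12 exons) had 66, 113 and 54 counts in wild-type Col-0 and 44, 43 and 49 in amiR-mterf2. Only Col-0 replicate 2 was clearly high, and after scaling Col-0 replicate 3 lay below amiR-mterf2 replicates 1 and 3. The log2 fold change of -0.69 ± 0.338 (SE, edgeR adjusted p = 0.14) did not pass the threshold. Without Col-0 replicate 2 the estimate was -0.21 (edgeR adjusted p = 0.61).

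Ratios within a library do not depend on how the libraries are scaled, and the balance of the subunits was compared by them. The log2 ratio of CESA4 to CESA8 counts was -0.34, -0.05 and -0.52 in Col-0 and 0.67, 0.29 and 0.81 in amiR-mterf2. CESA8 thus had the higher count of the pair in every wild-type library and the lower in every amiR-mterf2 library. The difference was 0.89 and the two-sided exact permutation test gave p = 0.1, the lowest value possible with 3 libraries against 3 (adjusted p = 0.25 over the 5 ratios tested). Gene length was not taken into account. The antisense genes AT4G18770 and AT4G06845, at 0 counts in every library, overlap CESA8 over 481 and 81 bases, and strand use is not known. CESA7 to CESA8 also differed by 0.89, but with overlapping libraries (exact permutation p = 0.2, adjusted p = 0.333). The ratio of CESA4 to CESA7 was 0.78 ± 0.47 in Col-0 and 0.78 ± 0.24 in amiR-mterf2 (log2, SD, n = 3), a difference of 0.00 (exact permutation p = 1.0).

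**Figure D1:**
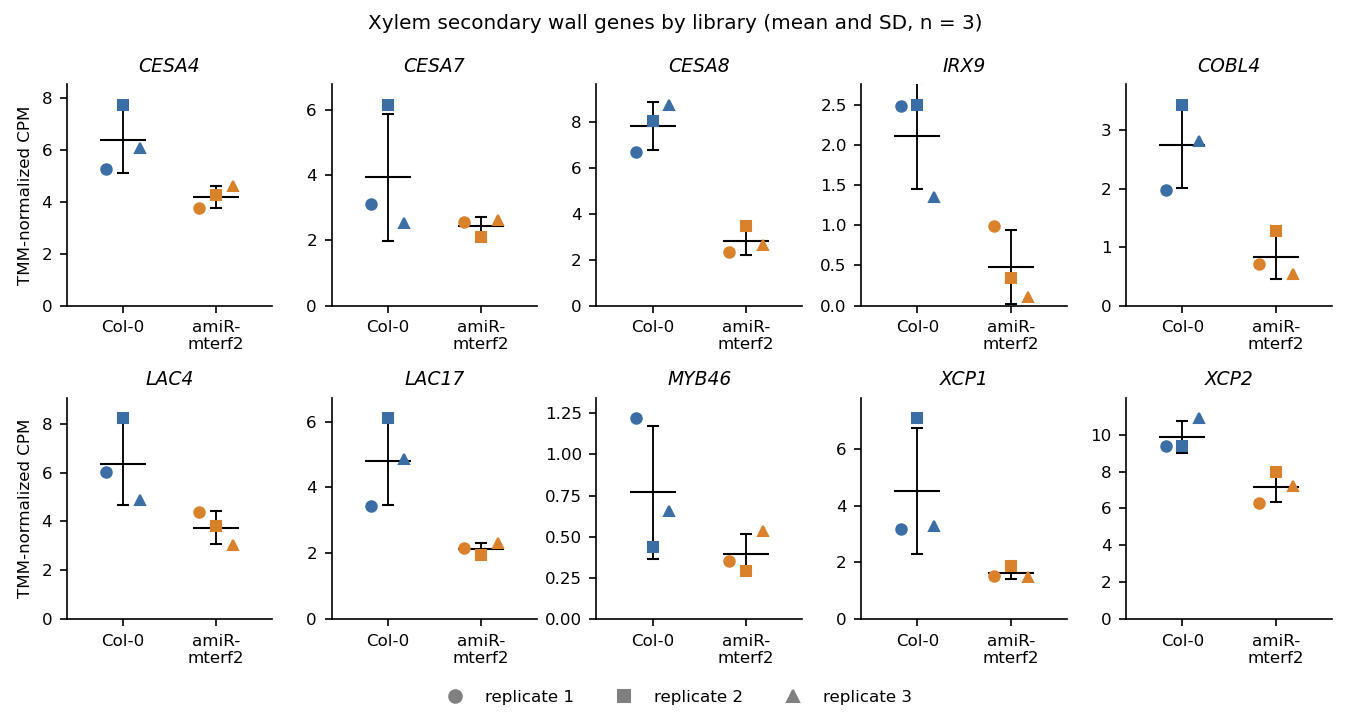
Level of each of the 10 genes by library, as TMM-normalized CPM on a linear axis that starts at 0 in each panel; symbols mark the replicates and the horizontal line and bar give the mean and SD of 3 libraries. Col-0 lies above amiR-mterf2 in every library for 8 of the genes, while CESA7 and MYB46 overlap.

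As a set against the subunits of primary walls, CESA4, CESA7 and CESA8 together held 2.51%, 2.78% and 2.79% as many counts as CESA1, CESA3 and CESA6 in Col-0 and 1.34%, 1.47% and 1.52% in amiR-mterf2. The means were 2.69% ± 0.157 and 1.44% ± 0.0905 (SD, n = 3), and the libraries of the genotypes did not overlap. Of the 9 tested genes of primary wall cellulose synthesis 1 fell and none rose, with a median log2 fold change of -0.13. The one that fell was CESA5 (-0.82 ± 0.153 (SE), edgeR adjusted p = 0.00175). The most abundant, CESA3 and CESA6, had log2 fold changes of -0.01 and -0.13 and were not called, and both estimates were positive without Col-0 replicate 2 (0.11 and 0.05). The summed level of these genes was 1064 to 1328 CPM in Col-0 and 1102 to 1136 CPM in amiR-mterf2.

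IRX9 and COBL4 act beside the cellulose synthases. IRX9, a glycosyltransferase-family protein required for elongation of the xylan backbone, showed the strongest fall of the 10 genes. The gene (AT2G37090; chromosome 2, 15587394 to 15589369, 3 exons) had 53, 46 and 29 counts in wild-type Col-0 and 17, 7 and 2 in amiR-mterf2. The amiR-mterf2 libraries spread widely, and replicate 3 was under the floor of 3 counts. The level went from 2.12 ± 0.659 to 0.481 ± 0.460 CPM (SD, n = 3). Its log2 fold change was -2.15 ± 0.606 (SE, edgeR adjusted p = 0.0171). The call was lost without Col-0 replicate 1 and without amiR-mterf2 replicate 2 or 3, with log2 fold changes of -2.01, -1.94 and -1.68 (edgeR adjusted p = 0.0545, 0.0787 and 0.0525).

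COBL4 encodes a membrane-anchored COBRA-like protein needed for ordered cellulose in secondary walls. Its gene (AT5G15630; chromosome 5, 5084524 to 5086811, 4 exons) had 42, 63 and 60 counts in wild-type Col-0 and 12, 26 and 10 in amiR-mterf2. All wild-type libraries lay above all amiR-mterf2 libraries. The level went from 2.74 ± 0.734 to 0.835 ± 0.385 CPM (SD, n = 3), a 3.23-fold fall (log2 fold change -1.69 ± 0.400 (SE), edgeR adjusted p = 0.00688).

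LAC4 and LAC17 encode the laccases that oxidise lignin monomers in the stem. LAC17 (AT5G60020; chromosome 5, 24167996 to 24170462, 6 exons) had 73, 112 and 104 counts in wild-type Col-0 and 37, 40 and 43 in amiR-mterf2. The amiR-mterf2 libraries lay close together, all below Col-0. The log2 fold change was -1.16 ± 0.267 (SE, edgeR adjusted p = 0.00579). An antisense gene, AT5G60022, overlaps LAC17 over 2266 bases and had 0 to 6 counts per library. Whether strand was used in counting is not given in the sources used here.

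LAC4 (AT2G38080; chromosome 2, 15934244 to 15937616, 6 exons) had 128, 151 and 104 counts in wild-type Col-0 and 75, 78 and 57 in amiR-mterf2. The lowest wild-type library, replicate 3 with 4.87 CPM, was close to the highest amiR-mterf2 library, replicate 1 with 4.38 CPM. The log2 fold change was -0.76 ± 0.243 (SE, edgeR adjusted p = 0.0299), and without Col-0 replicate 2 it was -0.54 (edgeR adjusted p = 0.0717). The call was also lost without Col-0 replicate 1 and without amiR-mterf2 replicate 2 or 3 (-0.80, -0.77 and -0.63, edgeR adjusted p = 0.055, 0.0859 and 0.117). The log2 ratio of LAC4 to LAC17 was 0.41 ± 0.40 in Col-0 and 0.79 ± 0.34 in amiR-mterf2 (SD, n = 3; exact permutation p = 0.3, adjusted p = 0.375), with overlapping libraries.

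XCP1 and XCP2, the paralogous papain-type proteases of dying tracheary elements, gave different fold changes. XCP1 (AT4G35350; chromosome 4, 16810482 to 16812077, 3 exons) had 68, 130 and 70 counts in wild-type Col-0 and 26, 38 and 28 in amiR-mterf2. Col-0 replicate 2 was by far the highest. The level went from 4.52 ± 2.23 to 1.62 ± 0.201 CPM (SD, n = 3). Its log2 fold change was -1.46 ± 0.347 (SE, edgeR adjusted p = 0.00703). Without Col-0 replicate 2 the change was -0.98 (edgeR adjusted p = 0.0136).

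XCP2 (AT1G20850; chromosome 1, 7252111 to 7253747, 4 exons) had 200, 172 and 233 counts in wild-type Col-0 and 108, 163 and 135 in amiR-mterf2. It was the most abundant of the 10 transcripts and the one with the smallest fall, from 9.89 ± 0.875 to 7.16 ± 0.824 CPM (SD, n = 3). Its log2 fold change was -0.46 ± 0.153 (SE, edgeR adjusted p = 0.0355). The call was lost in 8 of 14 alternative settings, among them 5 of the 6 that leave out 1 library, all except the one without Col-0 replicate 2, with changes of -0.54 to -0.37 (edgeR adjusted p = 0.0505 to 0.137).

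The log2 ratio of XCP1 to XCP2 was -1.55, -0.40 and -1.73 in Col-0 and -2.03, -2.09 and -2.25 in amiR-mterf2. It was lower in every amiR-mterf2 library, and Col-0 replicate 2 was the library farthest from them. The difference was -0.90 (exact permutation p = 0.1, the smallest possible, adjusted p = 0.25), and without Col-0 replicate 2 it was -0.48.

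**Figure D2:**
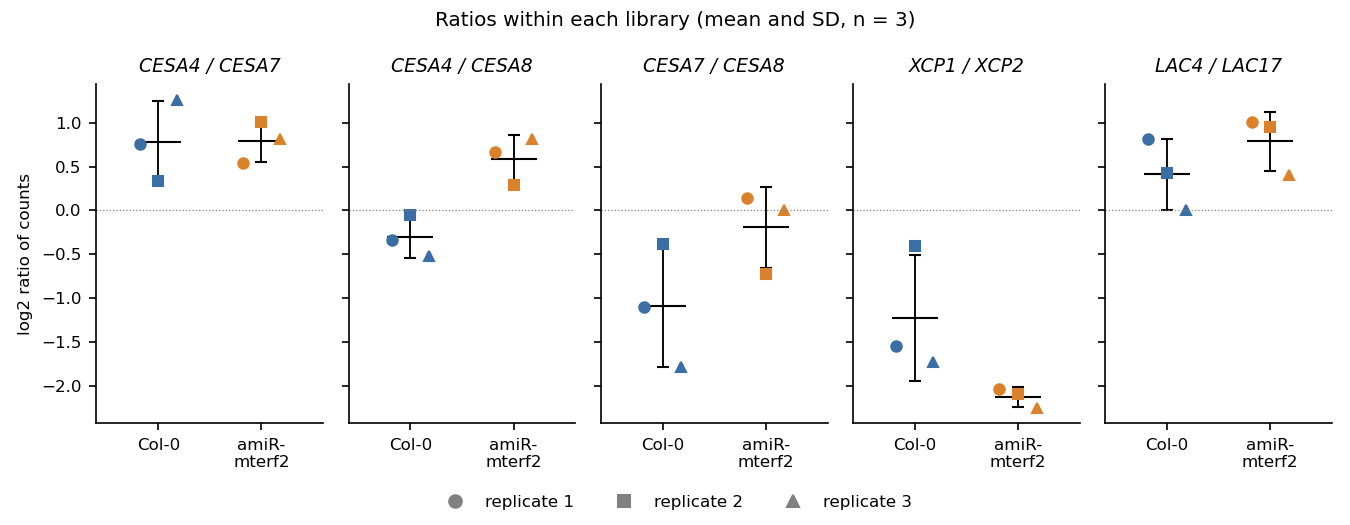
Log2 ratio of the counts of a pair of genes within each library, with a pseudocount of 0.5 counts; symbols mark the replicates and the line and bar give the mean and SD of 3 libraries. The genotypes are separate for CESA4 to CESA8 (-0.52 to -0.05 in Col-0, 0.29 to 0.81 in amiR-mterf2) and for XCP1 to XCP2, and overlap for the other 3 pairs.

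MYB46, the transcription factor of the set, did not pass the filter on low counts. The gene (AT5G12870; chromosome 5, 4062666 to 4065075, 2 exons) had 26, 8 and 14 counts in wild-type Col-0 and 6, 6 and 10 in amiR-mterf2. Col-0 replicate 1 was high, and Col-0 replicate 2 lay below amiR-mterf2 replicate 3. When all genes with a count were tested, 25351 in number, its log2 fold change was -0.94 ± 0.673 (SE, edgeR adjusted p = 0.351). No difference in MYB46 was detected.

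**Figure D3:**
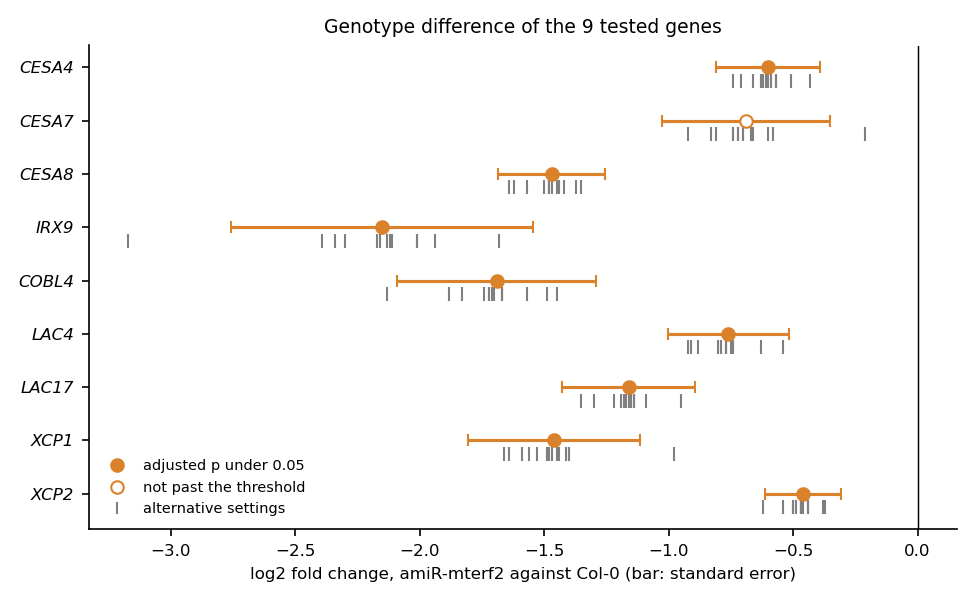
Log2 fold change of amiR-mterf2 against Col-0 for the 9 tested genes, with the standard error as a bar; filled points passed the edgeR threshold and grey ticks are the estimates under the alternative settings. All estimates are negative, from -0.46 for XCP2 to -2.15 for IRX9, and the tick nearest to 0 is that of CESA7 without Col-0 replicate 2 (-0.21).

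Over the 14 alternative settings (13 for IRX9) every estimate of the 9 genes stayed negative. CESA8, COBL4, LAC17 and XCP1 passed the threshold in all of them. CESA8 ranged from -1.64 to -1.35, COBL4 from -2.13 to -1.45, LAC17 from -1.35 to -0.95 and XCP1 from -1.66 to -0.98 on the log2 scale. CESA4 and XCP2 passed in 6 of 14, LAC4 in 10 of 14, IRX9 in 10 of 13 and CESA7 in none. The number of genes that fell was 6 without Col-0 replicate 2, 6 without Col-0 replicate 3 and 6 without amiR-mterf2 replicate 1. It was 5 without Col-0 replicate 1 and 4 without amiR-mterf2 replicate 2 or replicate 3.

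The levels per length could be put in order within each genotype. In Col-0, XCP2 had the highest CPM per kilobase of exon (7.18 ± 0.635, SD, n = 3) and did not overlap with the next gene, XCP1 (3.20 ± 1.58). From XCP1 downward each gene overlapped with its neighbour in the order LAC4, CESA8, LAC17, CESA4, IRX9, COBL4 and CESA7, to MYB46 (0.616 ± 0.324). The places of LAC17 and CESA8 are uncertain in both genotypes. An antisense gene overlaps LAC17 over 2266 bases, another overlaps CESA8 over 481 bases, and strand use is not known. In amiR-mterf2, XCP2 was again the highest (5.20 ± 0.598), followed without overlap by LAC4 (1.67 ± 0.300), and CESA8 stood below CESA4 and LAC17. The lowest were COBL4, IRX9 and MYB46 (0.400, 0.325 and 0.314). CESA7 (0.714 ± 0.0843) lay above COBL4, its neighbour in the order, without overlap, while its libraries overlapped with those of IRX9. In both genotypes all 10 transcripts were scarce, and together they held 42.7 to 59.1 CPM in Col-0 and 25.1 to 27.3 CPM in amiR-mterf2.

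In CPM, all Col-0 libraries lay above all amiR-mterf2 libraries for 8 of the 10 genes, and for 24.4% of all genes tested. In exon sequence, each of the 10 genes shared no exact stretch of 50 bases with 24 other genes. These were the other members and relatives of some of them, not 24 relatives of each gene. Reads of 50 bases would not be split with the genes compared.

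Of 28 transcription factors of secondary wall formation, 14 passed the filter on low counts and were tested, 5 fell, none rose and the median log2 fold change was -1.04. VND6, a master switch of metaxylem vessels, had 12, 4 and 16 counts in wild-type Col-0 and 2, 0 and 2 in amiR-mterf2. The ratio of amiR-mterf2 to Col-0, from summed counts, was 0.135, with a 95% Clopper-Pearson interval of 0.0348 to 0.382. VND7, which acts in protoxylem vessels, had 8, 7 and 0 counts against 0, 1 and 0, a ratio of 0.0722 (95% interval 0.00172 to 0.470). Intervals cover counting error only and neither VND6 nor VND7 was tested. VND1, also untested, lay higher in amiR-mterf2, at 0.468 to 0.588 CPM beside 0 to 0.382 CPM in the wild type. VND2, VND3, VND4 and VND5 were tested, had overlapping libraries and did not pass the threshold. Their log2 fold changes were 0.24, -1.05, -0.42 and -0.64 (edgeR adjusted p = 0.717, 0.118, 0.444 and 0.329).

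MYB83, the partner of MYB46, had 4, 13 and 20 counts in wild-type Col-0 and 0, 14 and 2 in amiR-mterf2, with overlapping libraries and an edgeR adjusted p of 0.381. XND1 and VNI2 encode NAC proteins that restrain xylem vessel formation, and both fell. XND1 had 14, 12 and 25 counts against 0, 0 and 3, a ratio of 0.0637 (95% Clopper-Pearson interval 0.0127 to 0.197; edgeR adjusted p = 0.00692). VNI2 was by far more abundant, at 50.4 ± 1.06 CPM in Col-0 and 28.2 ± 1.07 CPM in amiR-mterf2 (SD, n = 3), or -0.84 ± 0.103 as a log2 fold change (SE, edgeR adjusted p = 9.6e-05). The homeodomain factor KNAT7 (-1.82 ± 0.318, edgeR adjusted p = 0.00111) and the NAC factor SND3 (-2.34 ± 0.770, edgeR adjusted p = 0.0347) also fell, the latter not without Col-0 replicate 2 or 3 or amiR-mterf2 replicate 2 or 3 (-2.45 to -1.76, edgeR adjusted p = 0.0567 to 0.121). MYB20 had a log2 fold change of 0.42 ± 0.197 (edgeR adjusted p = 0.119). No read was counted for NST2 or NST3 in any library. If each count is a separate read pair, this allows up to 0.140 to 0.175 CPM per library. MYB58 was also at 0, but another gene, AT1G16489, overlaps it over its whole length on the opposite strand, so that its 0 sets no limit.

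The genes of xylan and other wall polysaccharides had fallen in part. Of 25 genes, 23 were tested, 10 fell and none rose, with a median log2 fold change of -0.75. The largest falls were those of GUX2, which adds glucuronic acid to xylan (-2.39 ± 0.705, edgeR adjusted p = 0.0212), GXM1, which methylates it (-2.10 ± 0.397, edgeR adjusted p = 0.00186), and IRX15L, needed for normal xylan length (-1.91 ± 0.443, edgeR adjusted p = 0.0062). GUX2 lost its call without Col-0 replicate 3 (-2.40, edgeR adjusted p = 0.0528) or amiR-mterf2 replicate 1 (-2.46, edgeR adjusted p = 0.0716). The most abundant genes of the list were the acetylation genes RWA2 and RWA1. RWA1 fell (-0.60 ± 0.130, edgeR adjusted p = 0.00417), while RWA2 gave -0.33 ± 0.123 (edgeR adjusted p = 0.0574), which passed without Col-0 replicate 1 (-0.40, edgeR adjusted p = 0.0444).

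For lignin, 23 of 27 genes were tested, of which 13 fell and 2 rose, with a median log2 fold change of -0.92. LAC11, the laccase that acts with LAC4 and LAC17, had 64, 109 and 43 counts in wild-type Col-0 and 12, 6 and 5 in amiR-mterf2, a log2 fold change of -3.12 ± 0.518 (SE, edgeR adjusted p = 0.000798). The phenylalanine ammonia-lyase PAL4 (-1.86 ± 0.334, edgeR adjusted p = 0.00129) and the peroxidase PRX64, which serves the Casparian strip (-1.57 ± 0.230, edgeR adjusted p = 0.00035), fell as well. Against this direction, the peroxidase PRX71 had 150, 213 and 176 counts in wild-type Col-0 and 2572, 3135 and 3017 in amiR-mterf2. It rose 17.3-fold (log2 fold change 4.12 ± 0.174 (SE), edgeR adjusted p = 6.72e-08). C4H, which acts early in the whole phenylpropanoid pathway, rose by 0.74 ± 0.168 (SE, edgeR adjusted p = 0.00549), and COMT1 gave -0.09 ± 0.113 (edgeR adjusted p = 0.567). Without Col-0 replicate 2, 5 genes of this list rose instead of 2.

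The genes of wall patterning and cell death of tracheary elements fell in 7 of 9 cases, all 9 being tested, and none rose; the median was -0.88. MC9, a metacaspase that clears the dying cell, had 145, 182 and 118 counts in wild-type Col-0 and 24, 18 and 18 in amiR-mterf2, a 6.86-fold fall (log2 fold change -2.78 ± 0.301 (SE), edgeR adjusted p = 3.98e-05). The ribonuclease gene RNS3 (-1.98 ± 0.286, edgeR adjusted p = 0.000316) and the nuclease gene BFN1 (-1.81 ± 0.455, edgeR adjusted p = 0.00937) fell as XCP1 did. ACL5, whose product makes thermospermine and delays vessel death, and TED6, which contributes to secondary wall formation, fell by 0.44 ± 0.128 and 0.88 ± 0.294 (SE, edgeR adjusted p = 0.021 and 0.037). ACL5 passed only without Col-0 replicate 2 among the fits that leave out 1 library (otherwise -0.46 to -0.37, edgeR adjusted p = 0.0559 to 0.0901), and TED6 lost its call without Col-0 replicate 1 or 3 or amiR-mterf2 replicate 2 or 3 (-0.81 to -0.66, edgeR adjusted p = 0.0985 to 0.16). In this list 6 genes fell without Col-0 replicate 2, 4 without Col-0 replicate 1 or amiR-mterf2 replicate 1, and 3 without any one of the remaining libraries.

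**Figure D4:**
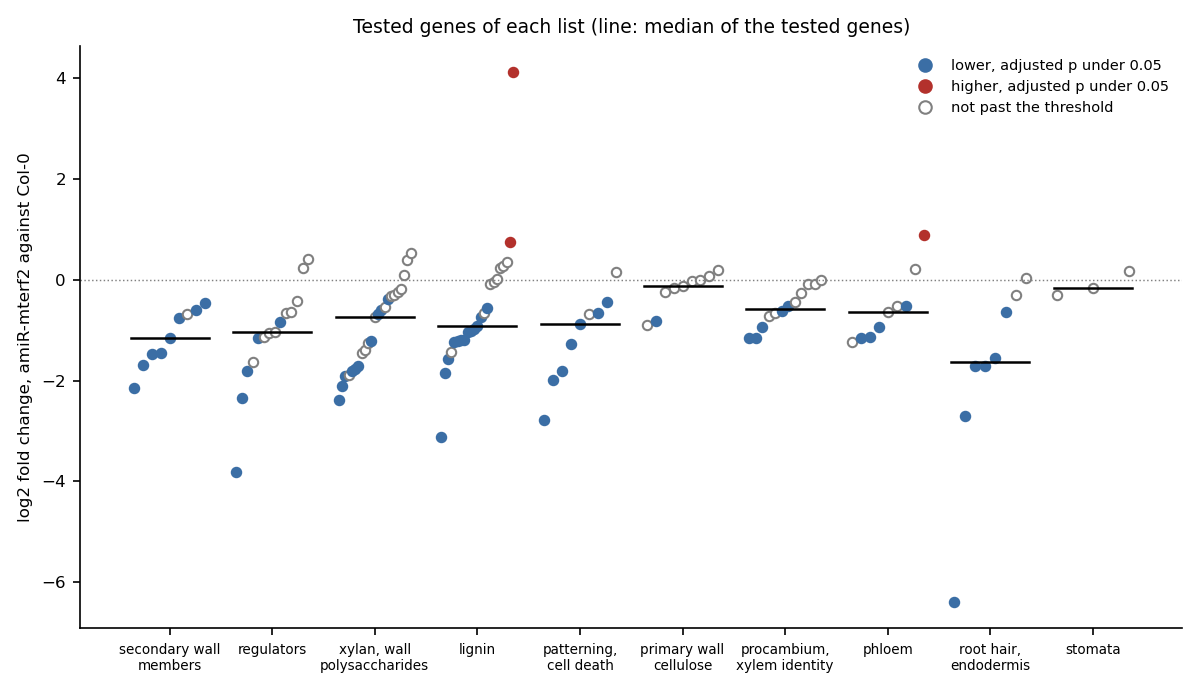
Log2 fold change of every tested gene of the secondary wall set and of 9 other lists, in ascending order within a list; blue points fell and red points rose by the edgeR test, open points did not pass, and the line is the median of the list. The median is -1.16 for the secondary wall set, -0.13 for primary wall cellulose genes and -0.17 for the stomatal lineage. The lowest point of the root list is COBL9, whose fitted value rests on 2 counts in amiR-mterf2.

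Genes of other cell types moved together with the xylem genes in part. Of 14 genes of the procambium and of xylem identity, 12 were tested and 5 fell, with a median of -0.58. Among those that fell were TMO5, a factor of vascular cell division (-1.16 ± 0.183, edgeR adjusted p = 0.00055), CLE41, a peptide signal from the phloem (-1.16 ± 0.312, edgeR adjusted p = 0.0135), and its receptor PXY (-0.94 ± 0.215, edgeR adjusted p = 0.00581). CLE41 lost its call without amiR-mterf2 replicate 2 or 3 (-1.11 and -1.12, edgeR adjusted p = 0.0558 and 0.0529). LHW and PHB, the most abundant, gave -0.08 and -0.09. Of 10 phloem markers, 9 were tested, 4 fell and 1 rose, with a median of -0.65. The sucrose transporter SUC2 of companion cells fell by 1.13 ± 0.110 (SE, edgeR adjusted p = 1.8e-05), SEOR1 of sieve elements by 0.93 ± 0.153 (edgeR adjusted p = 0.000748) and BRX by 1.16 ± 0.357 (edgeR adjusted p = 0.0257). PP2-A1 fell by 0.52 ± 0.157 (edgeR adjusted p = 0.0232), and CVP2 rose by 0.89 ± 0.225 (edgeR adjusted p = 0.00996). BRX lost its call without Col-0 replicate 1 or 3 or amiR-mterf2 replicate 2 or 3 (-1.19 to -1.02), PP2-A1 without any 1 library except Col-0 replicate 2 (-0.59 to -0.40) and CVP2 without amiR-mterf2 replicate 1 or 3 (0.81 and 0.79). The summed level of the phloem markers was 135.7 to 138.8 CPM in Col-0 and 79.4 to 87.3 CPM in amiR-mterf2, without overlap.

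Of 11 markers of root hairs and the endodermis, 8 were tested and 6 fell, with a median of -1.63. All 5 CASP genes of the Casparian strip fell, among them CASP4 (-2.70 ± 0.446, edgeR adjusted p = 0.000764), CASP5 (-1.72 ± 0.179, edgeR adjusted p = 2.88e-05) and CASP1 (-1.55 ± 0.163, edgeR adjusted p = 3.27e-05), and SCR gave -0.30 ± 0.169 (edgeR adjusted p = 0.2). The CASP genes together held 38.1 to 45.1 CPM in Col-0 and 14.8 to 17.4 CPM in amiR-mterf2. The root hair marker COBL9 had 10, 176 and 12 counts against 0, 0 and 2, a ratio of 0.0109 (95% Clopper-Pearson interval 0.00132 to 0.0401). RSL4, RHD6 and EXPA7 were at 0 in all amiR-mterf2 libraries. RHD6 and EXPA7 were likewise at 0 in Col-0 replicates 1 and 3, where RSL4 had 2 counts each. Only Col-0 replicate 2 held more of them, with 23 counts for RSL4, 13 for RHD6 and 69 for EXPA7. Of 5 stomatal lineage markers 3 were tested and none passed edgeR's threshold, with a median of -0.17. The endodermal factor MYB36 gave 0.04 ± 0.442 (edgeR adjusted p = 0.954) and the phloem factor APL 0.21 ± 0.191 (edgeR adjusted p = 0.422). The summed levels of the CASP genes and of the phloem markers were lower in amiR-mterf2, as was that of the secondary wall genes, and their part in that difference was not tested.

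**Figure D5:**
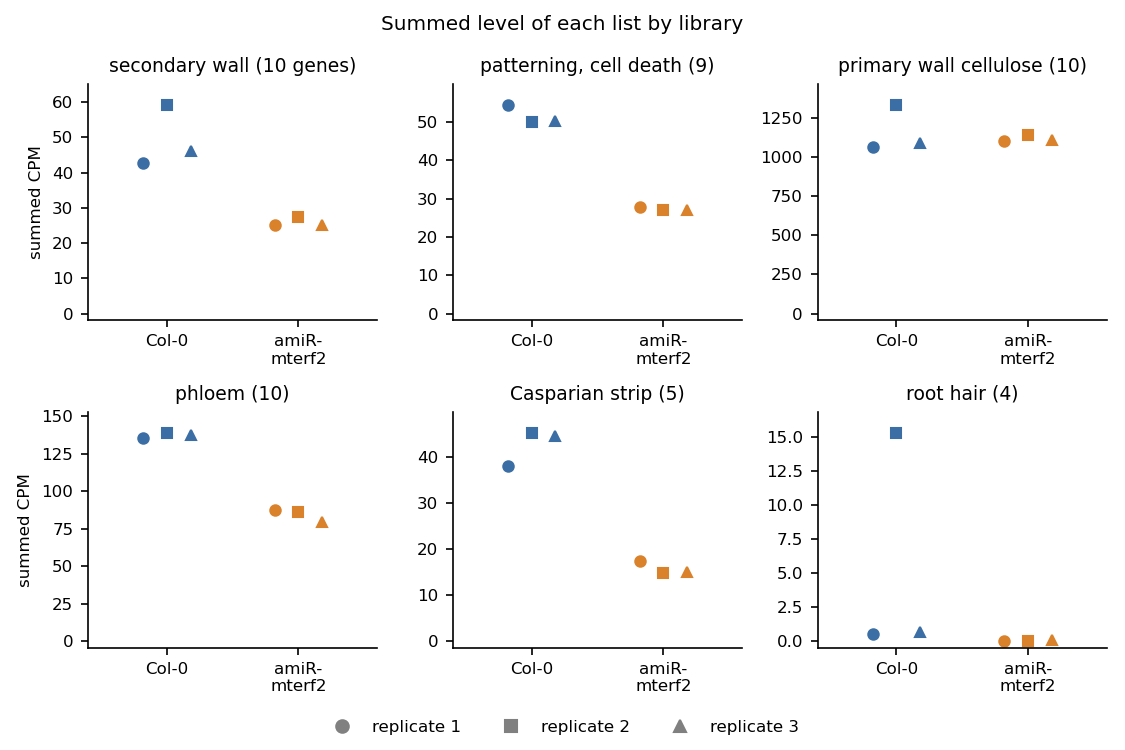
Summed CPM of the genes of 6 lists in each library, on linear axes that include 0, with symbols for the replicates. The genotypes are separate for secondary wall, cell death, phloem, Casparian strip and root hair genes and overlap for primary wall cellulose genes, and the root hair sum is 15.3 CPM in Col-0 replicate 2 and under 1 CPM elsewhere.

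The genes with the most similar profile to the secondary wall set were sought among 16202 other nuclear genes with a mean of at least 1 CPM, as the smallest root mean square difference from the mean centred log2 profile of the 9 tested genes over the 6 libraries. The nearest was FAH1 (also called F5H1, AT4G36220), the ferulate 5-hydroxylase of syringyl lignin, at 0.0506. It had 931, 1124 and 951 counts in wild-type Col-0 and 453, 548 and 485 in amiR-mterf2, and so shared with the set a high Col-0 replicate 2 and a lower level in all amiR-mterf2 libraries. HXK1, a hexokinase and glucose sensor, followed at 0.0545, then AT1G64650 at 0.0588, NDPK3, a nucleoside diphosphate kinase, at 0.0655 and ZF2, a zinc finger factor, at 0.0671. Of the set itself, LAC17 and LAC4 lay closest to its mean profile (0.161 and 0.187) and IRX9 farthest from it (0.492).

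Over all genes, 3261 fell and 3248 rose. With library sizes from total counts in place of TMM these numbers were 4148 and 2129, and the median of all genes tested was -0.17, while 8 of the secondary wall genes still fell and none rose. With the counts of the 5 libraries of mostly even counts halved, a setting added after the data had been seen, 8 of these genes fell as well.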

How the data were processed

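RNA-Seq counts from 3 Col-0 and 3 amiR-mterf2 seedling libraries were analysed, grouped and numbered by their labels. The authors deposited raw counts per gene over exons, without normalization. The submitters' notes list Trimmomatic, FastQC, TopHat2 2.1.1, featureCounts and TAIR10, while the column headers name HISAT2, so the aligner is uncertain. Strand use and whether a read pair gave 1 or 2 counts are not given in the sources used here.

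All 150 listed gene identifiers were found in the TAIR10.1 RefSeq annotation. Genes were kept by filterByExpr (minimum count 10, minimum total 15), scaled by TMM and compared with edgeR 4.0.16 (R 4.3.3, limma 3.58.1) by the quasi-likelihood test with genotype as the only term, adjusted over 17902 genes. Standard errors were derived from the fold change and the F statistic. CPM used TMM-scaled library sizes. Ratios used a pseudocount of 0.5 counts and two-sided exact permutation tests (scipy 1.17.1), and similar profiles a pseudocount of 0.5 CPM. Promoter windows were cut from the TAIR10.1 genome. The procedure was tested on simulated data.

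The alternatives were DESeq2 size factors, total counts, TMM from nuclear genes, the DESeq2 1.42.0 Wald test, no filter, a minimum of 10 counts per library throughout, a replicate block, leaving out each library, and, added after the data had been seen, halving the counts of 5 libraries. Named genes were the 10 members, MTERF2, VND6, VND7, MYB83, and per list up to 3 genes per direction with the largest change among those past the threshold plus the 2 most abundant. The other VND genes, the other root hair markers, MYB36, APL and the genes with no counts were named after their values were seen. The members and lists were chosen with earlier results of these data known.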

Additional observations from a re-analysis of the deposited data

How the results depend on the processing

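Of the values reported, the number of secondary wall genes that fell was 8, and it was 4 to 6 when 1 library was left out and 6 to 8 in the other settings. The replicate numbers did not pair the libraries: same-numbered libraries had correlated deviations of 0.0345, 0.0211 and -0.0119, and with the replicate block 7 of these genes fell, XCP2 being lost (-0.47, edgeR adjusted p = 0.0524). Outside the TMM scaling, total counts lowered the number of all genes that rose from 3248 to 2129. The number of genes of the other lists that rose was 3, and 2 to 9 with 1 library left out. CESA4 also lost its call with TMM from nuclear genes, the DESeq2 Wald test and no filter (-0.57, -0.61 and -0.57, adjusted p = 0.0542, 0.0526 and 0.0645), and XCP2 with the last 2 of these (-0.47 and -0.44). Without 1 library, 3 regulators fell instead of 5 (amiR-mterf2 replicate 2), 3 procambium genes instead of 5 (amiR-mterf2 replicate 2 or 3), 2 phloem genes instead of 4 (Col-0 replicate 1 or 3, amiR-mterf2 replicate 2 or 3) and no phloem gene rose instead of 1 (amiR-mterf2 replicate 1 or 3), and with total counts 3 primary wall genes fell instead of 1. Signs changed only for genes that were not called: CESA3 gave 0.02 with TMM from nuclear genes, 0.02 with no filter, 0.00 with the replicate block and -0.07 to 0.11 with 1 library left out, where CESA6 gave -0.22 to 0.05, PHB -0.15 to 0.02 and the stomatal gene TMM -0.31 to 0.07. For 43 of the named genes outside the set, 545 of 587 fits kept direction and side of the threshold, 28 lost the call, 6 gained it and 8 changed sign. The causes were not tested. Low counts limit the values of MYB46, which had at most 26 counts in a library.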
